A study of Mus musculus with 18 samples.

Results

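The first appearance of macroH2A2-GFP on chromatin was examined in 2 native ChIP-seq libraries, 1 taken after 6 hours of doxycycline (6h) and 1 without treatment (0h), out of 18 libraries in the whole series. They were chosen by their labels as the 6h and 0h libraries without another drug. The broad regions that the authors called in each numbered 62192 at 6h and 28980 at 0h, 91172 in all. Cells at 6h had received doxycycline at 0.5 ug/ml for 6 hours, and cells at 0h had received none. Both were SV40-immortalized dermal fibroblasts from newborn male 129/S6 mice at passages 20 to 30, with both macroH2A1 and macroH2A2 knocked out and a macroH2A2-GFP transgene under doxycycline control. The labels do not state whether the line is 1 clone. Poly(A) RNA-seq of the same cells had 3 biological replicates at 6h and 3 at 0h. The other libraries used here, beside these values only, were taken at 24h and 5d of doxycycline and at 6h after 10 days of 5 uM GSK126, an inhibitor of the methyltransferase Ezh2.

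MacroH2A2 is a histone H2A variant that carries a large globular macro domain behind its histone fold. In mammalian cells, macroH2A variants are known to form broad domains over silent chromatin and the inactive X chromosome, and to be scarce on most active genes. Both macroH2A genes of the cells were knocked out, per the labels. The GFP tag marked transgene protein made since induction plus any made without doxycycline. GFP-Trap beads, which bind GFP, pulled down chromatin cut with micrococcal nuclease. With 1 ChIP library per condition, differences between 6h and 0h describe these 2 libraries and have no replicate check, and the read depth behind the regions is unknown.

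RNA of H2afy2, the macroH2A2 gene, followed the labels. It stood at 823, 833 and 805 CPM (gene counts scaled to a common library size, normalised with TMM) in the 6h libraries, against 10.5, 25.3 and 9.61 CPM in the 0h libraries. The log2 change of H2afy2 was 5.77 (SE 0.14, adjusted p = 1.62e-22, quasi-likelihood test of edgeR). H2afy, the macroH2A1 gene, was at 56.9 ± 1.16 CPM at 6h and 56.8 ± 1.86 CPM at 0h (SD, n = 3 each), with an adjusted p of 0.954. For H2afy2 these counts do not separate the transgene from the chromosomal gene. That does not apply to H2afy, whose RNA was counted at both times although the labels give macroH2A1 as knocked out. Counts over a whole gene do not show whether a part of it was deleted, so they do not check the deletions. All 12 fibroblast markers were at 1 CPM or more at both times, and their summed level was 14471 to 14619 CPM at 6h and 14941 to 15181 CPM at 0h. Adipocyte markers summed to 90.8 to 96.8 CPM at 6h and 98.4 to 101 CPM at 0h, and muscle markers to 11.7 to 12 CPM at 6h and 4.38 to 5.57 CPM at 0h, with the muscle regulators Myod1 and Myog at 0 in all 6 libraries. Only 1 of the 4 adipocyte markers and 1 of the 5 muscle markers reached 1 CPM at either time, so these sums do not describe the whole lists. Marker sums for keratinocytes, melanocytes, endothelium, leukocytes and Schwann cells stayed under 10 CPM in each library.

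The results turn on where regions began relative to gene starts, so the 250 bases before the start are shown for 4 genes whose bodies were covered to 80% or more at 6h and to 20% or less at 0h and for 2 genes covered at both times. The first 4 are the 2 with the highest RNA and the 2 longest of that kind. The last 2 were added as a contrast after their values were seen. Sequences are from RefSeq, build GRCm38.p6, read 5′ to 3′ on the gene's strand, with every CG dinucleotide in capitals. Their positions are chr8:128685404-128685653 (plus strand) for Itgb1, chr15:103239853-103240102 (minus) for Cbx5, chr17:63863731-63863980 (plus) for Fer, chr17:44814628-44814877 (minus) for Runx2, chr17:43801102-43801351 (plus) for Rcan2 and chr2:13491877-13492126 (minus) for Cubn.
Itgb1: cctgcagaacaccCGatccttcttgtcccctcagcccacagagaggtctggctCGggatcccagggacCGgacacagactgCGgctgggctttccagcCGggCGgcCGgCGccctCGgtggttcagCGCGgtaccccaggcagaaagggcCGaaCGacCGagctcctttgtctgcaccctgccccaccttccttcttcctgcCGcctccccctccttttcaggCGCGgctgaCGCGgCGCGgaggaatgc
Cbx5: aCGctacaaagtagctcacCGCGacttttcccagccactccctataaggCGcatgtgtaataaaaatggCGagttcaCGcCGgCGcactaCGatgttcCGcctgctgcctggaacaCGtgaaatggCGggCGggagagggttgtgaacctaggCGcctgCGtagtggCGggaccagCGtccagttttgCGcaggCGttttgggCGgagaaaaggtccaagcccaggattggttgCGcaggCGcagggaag
Fer: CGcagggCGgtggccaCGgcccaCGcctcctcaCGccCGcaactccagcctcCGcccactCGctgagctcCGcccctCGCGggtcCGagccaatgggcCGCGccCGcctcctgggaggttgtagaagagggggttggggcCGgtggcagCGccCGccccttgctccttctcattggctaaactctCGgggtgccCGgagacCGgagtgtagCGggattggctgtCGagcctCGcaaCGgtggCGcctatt
Runx2: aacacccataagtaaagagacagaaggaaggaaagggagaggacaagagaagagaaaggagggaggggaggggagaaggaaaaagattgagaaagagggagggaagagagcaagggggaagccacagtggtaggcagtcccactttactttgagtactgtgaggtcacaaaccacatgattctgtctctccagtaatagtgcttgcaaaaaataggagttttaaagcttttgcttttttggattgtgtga
Rcan2: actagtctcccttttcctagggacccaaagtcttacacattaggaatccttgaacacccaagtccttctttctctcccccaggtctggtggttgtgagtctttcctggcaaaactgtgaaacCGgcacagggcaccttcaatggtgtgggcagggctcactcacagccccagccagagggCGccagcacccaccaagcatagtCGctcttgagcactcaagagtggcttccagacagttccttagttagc
Cubn: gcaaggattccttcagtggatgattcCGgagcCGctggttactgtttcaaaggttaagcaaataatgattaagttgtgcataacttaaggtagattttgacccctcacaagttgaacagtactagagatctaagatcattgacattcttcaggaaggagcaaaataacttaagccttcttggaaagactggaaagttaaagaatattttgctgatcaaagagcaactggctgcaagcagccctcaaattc
The windows of Itgb1, Cbx5 and Fer held 21, 22 and 26 CG dinucleotides and lay outside regions at both 6h and 0h, although 95.8%, 81.5% and 93.5% of these gene bodies were covered at 6h. Distances ran from the annotated start that ends each window to the first base inside the gene covered at 6h, with upstream sequence left out. They were 1347 bases for Itgb1, the gene of integrin beta 1, and 3052 bases for Cbx5, the gene of the heterochromatin protein HP1 alpha. For Fer, a tyrosine kinase gene, the distance was 1020 bases. The start used for Fer and for Runx2 lies inside the gene span given below, so the window of Fer is wholly and that of Runx2 partly within that span. The window of Runx2, which encodes a transcription factor of bone and cartilage formation, held 0 CG dinucleotides and lay 100% inside a 6h region and 0% inside 0h regions. The window of Rcan2, a calcineurin regulator gene, held 3 and was likewise 100% inside at 6h and 0% at 0h. That of Cubn, the gene of the endocytic receptor cubilin, held 2 and was 100% inside at both times. Over all 21045 starts of the table, the same window held a median of 10 CG dinucleotides, and 93.6% of windows held 1 or more. The CG dinucleotide reads the same on both strands, and its number is a description of these letters.

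Regions covered 382.7 Mb at 6h and 201.1 Mb at 0h, which was 14.1% and 7.39% of the 2722 Mb spanned by chromosomes 1 to 19, X and Y. The 6h library held 2.15 times as many regions and covered 1.9 times as many bases. This size depends on the scores kept, with 202.9 Mb at 6h and 201.1 Mb at 0h for scores at or above the median of each list (2 at 6h and 1 at 0h), and 202.9 Mb at 6h and 51.37 Mb at 0h for scores of 2 or more in both. Over all chromosomes the regions themselves were not wider at 6h. Their median width was 4.4 kb at 6h and 5 kb at 0h, the middle 50% ran from 2.8 to 7 kb at 6h and from 3.4 to 7.8 kb at 0h, and the widest was 173 kb at 6h and 176 kb at 0h. Regions of 20 kb or more held 17.5% of covered bases at 6h and 18.6% at 0h. On autosomes without 8, 15 and 17 the median width was 4.2 kb at 6h and 4.8 kb at 0h, but the widest regions were wider at 6h (157 kb at 6h and 116 kb at 0h) and those of 20 kb or more held 12.4% of covered bases at 6h and 9.47% at 0h. Chromosomes 8, 15 and 17 stood apart from the other autosomes at both times. There regions covered 96.49 Mb at 6h and 70.41 Mb at 0h, a ratio of 1.37, whereas on the other autosomes they covered 283.1 Mb at 6h and 130.1 Mb at 0h, a ratio of 2.18. The number of regions was 11502 at 6h and 7192 at 0h on these 3 chromosomes, and 49963 at 6h and 21665 at 0h on the other autosomes. The region lists carry running numbers that skip values, and the positions behind skipped numbers were not analysed here. The skipped share was 16.8% at 6h and 37.1% at 0h on chromosomes 8, 15 and 17, and 2.2% at 6h and 5.57% at 0h on the other autosomes. What part this had in the differences on chromosomes 8, 15 and 17 was not tested, so several results are also given without them.

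Per chromosome, the share covered was higher at 6h on each autosome and on X. On the 16 autosomes other than 8, 15 and 17 it ran from 5.59% to 20.4% at 6h (median 13.8%) and from 1.61% to 11.9% at 0h (median 6.29%). Chromosome 14 was the lowest and chromosome 10 the highest of these at both times. Chromosomes 8, 15 and 17 were covered to 24.6%, 34.6% and 30.3% at 6h and to 17%, 26.3% and 22.3% at 0h. In percentage points the difference between 6h and 0h overlapped between both sets, at 7.63 to 8.31 on chromosomes 8, 15 and 17 and 3.97 to 10.2 (median 7.58) on the others. Chromosome 11, with 13.2 protein-coding genes per Mb, had the widest difference, 10.2 points. Chromosome 7, the richest in genes at 14 per Mb, had a difference of 5.15 points. Regions covered 1.85% of X at 6h and 0.316% at 0h, and 0.0401% of Y at 6h and 0.096% at 0h. In windows of 1 Mb on the autosomes, coverage was higher at 6h in 82.7% of 2451 windows. The rank correlation between 6h and 0h over these windows was 0.94, and it was 0.94 without chromosomes 8, 15 and 17. The windows share 1 library per time and are not replicates.

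**Figure D1:**
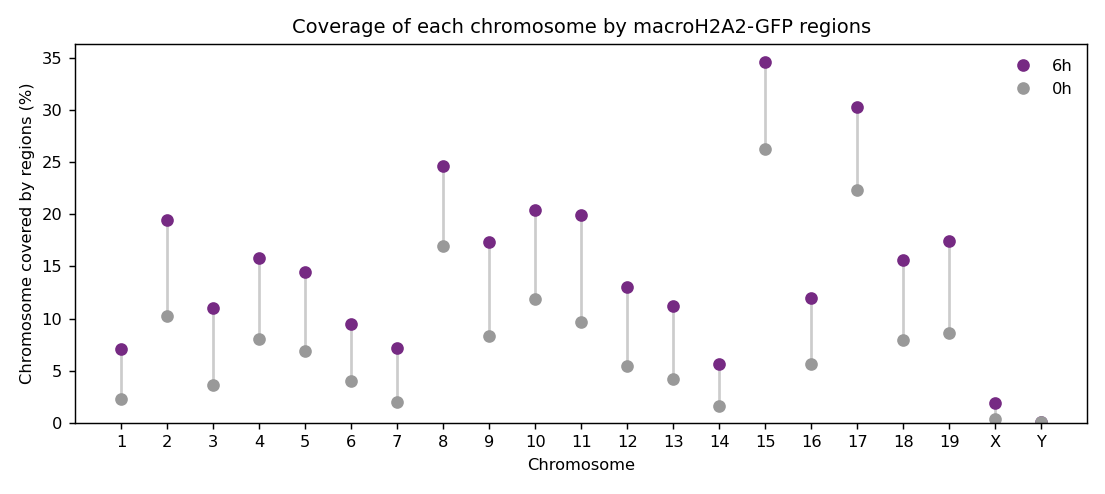
Share of each chromosome inside macroH2A2-GFP regions (y axis, percent of the chromosome's span) for chromosomes 1 to 19, X and Y (x axis), with 1 point for the 6h library and 1 for the 0h library, joined by a line. Chromosomes 8, 15 and 17 sit highest at both times, and each autosome and X has its 6h point above its 0h point.

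Most of the 0h regions overlapped a 6h region, while most regions of the larger 6h list overlapped no 0h region. Of the 62192 regions at 6h, 24898 (40.0%, exact 95% interval 39.6 to 40.4%) overlapped a 0h region by 1 base or more. Of the 28980 regions at 0h, 25609 (88.4%, 88.0 to 88.7%) overlapped a 6h region. These intervals cover counting error over regions only. Without chromosomes 8, 15 and 17 the shares on autosomes were 36.9% of 6h regions and 90.6% of 0h regions. The libraries shared 153 Mb, which was 40.0% of the bases covered at 6h and 76.1% of those covered at 0h. Independent placement over the chromosomes would give 7.39% and 14.1%, so the shared bases were 5.41 times that share. On autosomes without 8, 15 and 17 the ratio was 5.89. The 230 Mb covered at 6h alone were mostly not edges of older regions. Only 23.3% of them were extensions inside regions that touched a 0h region, 19.8% were in separate regions within 10 kb of one, 43.6% in regions 10 to 100 kb away and 13.2% in regions over 100 kb away. Wide regions were shared more often than narrow ones, at 83.3% of the 2075 regions over 20 kb and 28.6% of the 8918 of 2 kb or less at 6h. At 0h these shares were 99.4% of 1136 and 88.7% of 2107, with 84.9% for regions over 2 to 5 kb and 88.5% for those over 5 to 10 kb. Because 1 shared base counts as overlap, a wide region meets this rule more easily than a narrow one. The shares by width were not set against an expected share.

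Scores were the authors' whole numbers from 1 upward, with no stated reference. They are described within each list, and a cut applied to both lists, used elsewhere as an alternative, assumes that they are on 1 scale, which was not tested. At 6h, 48.3% of regions had a score of 1 and 17.9% had 3 or more, with a highest value of 63. At 0h, 69.9% had a score of 1 and 5.16% had 3 or more, with a highest value of 21. Within the 6h list, regions that overlapped a 0h region had a score of 3 or more in 24.8% of cases, against 13.3% for those with no 0h region. Within the 0h list, 84.7% of regions with a score of 1 overlapped a 6h region, and 96.7% of those with a score of 2. Scores on chromosomes 8, 15 and 17 were lower within each list, with 75.2% of regions there at a score of 1 at 6h and 92.0% at 0h. The regions with the highest scores were narrow. At 6h they were 0.6 kb on chromosome 3 from 37738401 to 37739000 (score 63), 0.2 kb on chromosome 10 from 49970001 to 49970200 (52) and 0.4 kb on chromosome 13 from 31659001 to 31659400 (51), with no gene annotated in any of them. At 0h they were 0.4 kb inside Jazf1 on chromosome 6 from 52841801 to 52842200 (21), 0.2 kb on chromosome 14 from 8346801 to 8347000 (20) and 0.2 kb inside Zhx3 on chromosome 2 from 160822601 to 160822800 (15). All 3 of these 0h positions also lay inside 6h regions.

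The bases covered at 6h alone lay mainly in genes, while those covered at 0h lay mainly between genes. Protein-coding and other annotated genes with windows of 1 kb on each side of protein-coding starts made up 47.7% of chromosomes 1 to 17, 19 and X. They held 54.2% of the bases covered at 6h and 37.4% of those covered at 0h. Of the bases covered at 6h alone, 65.7% were in genes or start windows, against 39.1% of those at 0h alone and 36.9% of those covered at both times. Intergenic sequence, 52.3% of these chromosomes, held 34.3% of the bases covered at 6h alone, 60.9% of those at 0h alone and 63.1% of the shared ones. On autosomes without 8, 15 and 17, the genic share was 62.6% of the bases at 6h alone and 38.3% of those at 0h alone. On chromosomes 8, 15 and 17 it was 78.8% at 6h alone and 40.2% at 0h alone. The share in start windows stayed under that of the chromosomes (1.45%) at both times, with 1.15% at 6h and 0.869% at 0h. With only regions of a score of 2 or more in both lists, 44.7% of bases at 6h and 36.3% at 0h were in genes or start windows, both under the share of the chromosomes.

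Gene starts themselves were largely left bare at 6h and were covered less often than the sequence on either side, which was also bare at most starts. Of 21045 annotated protein-coding starts, 7.09% lay inside a region at 6h and 3.13% at 0h. At 2 kb upstream of the start these shares were 27.7% at 6h and 11.6% at 0h, and at 2 kb inside 16.4% at 6h and 5.1% at 0h. Genes with 10 CPM or more at 0h (9100 starts) had the deepest dip at 6h, with 40.0% covered at 2 kb upstream, 4.93% at the start, 18.0% at 2 kb inside and 25.8% at 5 kb inside. At 0h the same starts had 13.2%, 0.736%, 1.14% and 1.45% at these positions. The 0h profile thus fell at the start of these genes and stayed low beyond it, whereas the 6h profile returned inside the gene. Starts of genes under 0.1 CPM (7817) had a shallow dip, with 12.1% at 2 kb upstream and 7.06% at the start at 6h, and 8.84% and 5.44% at 0h. Positions far inside the start can lie beyond the end of short genes. These profiles used all regions and were not run with a score filter or without chromosomes 8, 15 and 17. Mean body coverage at 6h of genes with 10 CPM or more was 20.1% with all regions and 4.05% with scores of 2 or more. With all regions it was 46.9% on chromosomes 8, 15 and 17 and 15.3% on the others.

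**Figure D2:**
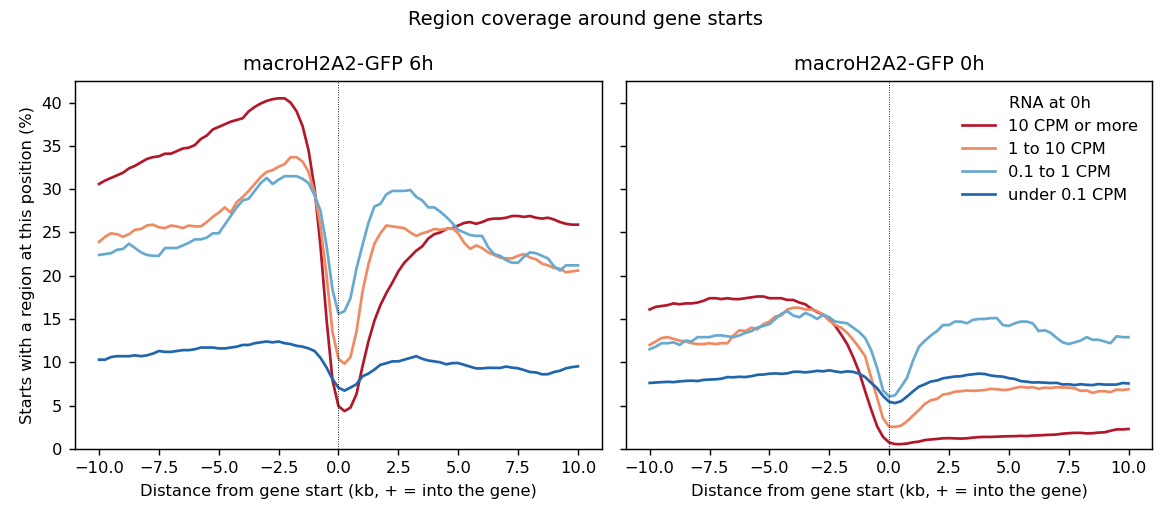
Percent of annotated protein-coding starts with a region (y axis) at each distance from the start (x axis, kb, positive into the gene), in the 6h library (left) and the 0h library (right), with 1 line per class of RNA level at 0h. At 6h the line of genes with 10 CPM or more drops from 40.0% at 2 kb upstream to 4.93% at the start and recovers to 25.8% at 5 kb inside, and at 0h it stays at 1.45% there.

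Starts inside regions were poor in CG dinucleotides. The 300 bases around the start held a median of 5 CG dinucleotides for the 1493 starts inside a 6h region, against 14 for the 19552 outside. At 0h the medians were 4 for 659 starts inside a region and 14 for 20386 outside. Among genes with 10 CPM or more, the 449 starts inside a 6h region had a median of 9 and the 8651 outside had 23. Among genes under 0.1 CPM the median was 4 both inside (552) and outside (7265). The gene classes differ in this count by themselves, with medians of 22 for starts of genes with 10 CPM or more and 4 for those under 0.1 CPM.

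With all regions, mean coverage of gene bodies was higher at 6h in each class of RNA level. Coverage of a gene body is the percent of its bases inside regions, with 1 kb trimmed at each end, and it was computed over 18415 protein-coding genes at least 3 kb long. Classes are by plain CPM at 0h without correction for transcript length, so they say how much RNA was counted rather than transcripts per cell. The 8422 genes with 10 CPM or more had a mean coverage of 20.1% at 6h and 0.942% at 0h, and 57.0% of them had a covered base at 6h against 7.03% at 0h. The 1914 genes of 1 to 10 CPM had 20.5% at 6h and 6.04% at 0h, and the 1324 genes of 0.1 to 1 CPM had 24.4% at 6h and 13.1% at 0h. The 6306 genes under 0.1 CPM had 10.0% at 6h and 8.31% at 0h, with a covered base in 33.5% at 6h and 24.9% at 0h. With all regions, genes with 10 CPM or more were thus covered least of the 4 classes at 0h and more than genes under 0.1 CPM at 6h. That order at 6h did not hold under either score filter. With scores at or above the median of each list, genes with 10 CPM or more had 4.05% at 6h and 0.942% at 0h, and genes under 0.1 CPM had 5.49% at 6h and 8.31% at 0h. With only regions of a score of 2 or more in both lists, genes with 10 CPM or more had 4.05% at 6h and 0.208% at 0h and genes under 0.1 CPM had 5.49% at 6h and 1.88% at 0h. Under that filter the mean differences, 3.84 and 3.62 points, were close to each other.

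The 3 chromosomes set apart differed in this too. Outside them, genes with 10 CPM or more had a mean coverage of 15.3% at 6h and 0.555% at 0h, and genes under 0.1 CPM had 8.37% at 6h and 5.48% at 0h. On chromosomes 8, 15 and 17, genes with 10 CPM or more had 46.9% at 6h and 3.11% at 0h. Genes under 0.1 CPM were covered less at 6h there, with 21.5% at 6h and 28.2% at 0h, and 151 of 784 (19.3%) were 20 points or more lower at 6h. Within the class of 10 CPM or more, mean coverage at 6h was 17% for 2402 genes of 10 to 30 CPM, 19.4% for 3627 of 30 to 100, 24.5% for 1833 of 100 to 300, 23.8% for 499 of 300 to 1000 and 15.8% for 61 of 1000 or more. The last group had a median of 0% and a median length of 15.3 kb, against 35.3 kb for genes of 100 to 300 CPM. Long genes of the class were covered more, at 26.1% at 6h and 2.65% at 0h for 1146 genes over 100 kb, and 13.2% at 6h and 0.315% at 0h for 1537 genes of 3 to 10 kb. Genes under 0.1 CPM went the other way, with 5.7% at 6h and 4.67% at 0h over 100 kb, and 10.7% at 6h and 8.49% at 0h at 3 to 10 kb.

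**Figure D3:**
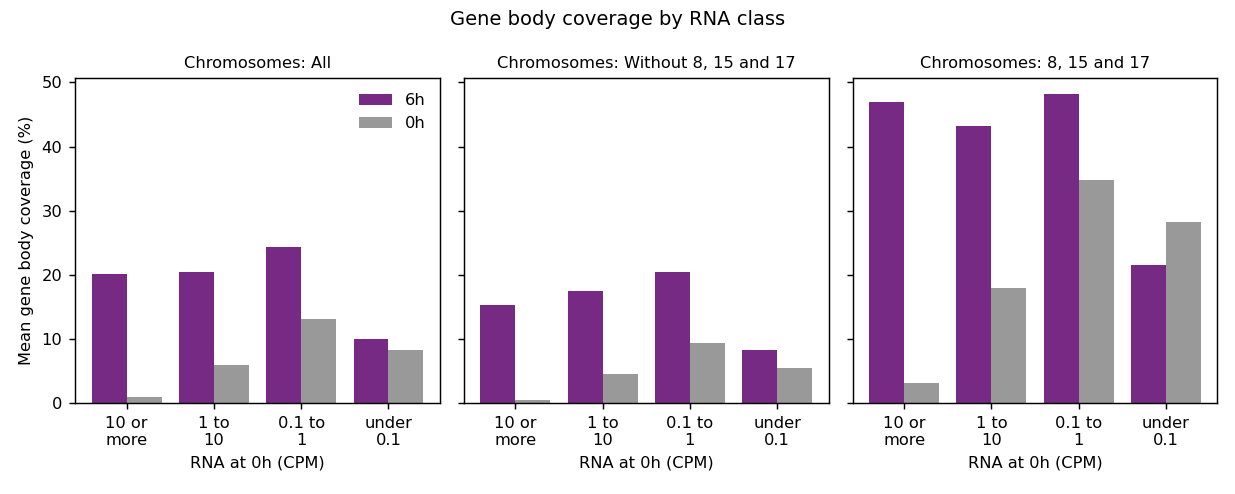
Mean percent of the gene body inside regions (y axis) for 4 classes of RNA level at 0h (x axis, plain CPM), with 1 bar for the 6h library and 1 for the 0h library, over all chromosomes 1 to 19 and X, without chromosomes 8, 15 and 17, and on these 3 only. The 6h bar is above the 0h bar in each class except genes under 0.1 CPM on chromosomes 8, 15 and 17, which are at 21.5% at 6h and 28.2% at 0h.

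A gene is called gained here where 80% or more of its body was covered at 6h and 20% or less at 0h. Gained genes numbered 518 of 18415 (2.81%), of which 464 had no covered base at 0h. By contrast, 29 genes (0.157%) were lost, with 80% or more at 0h and 20% or less at 6h, 151 were covered to 80% or more at both times, and 9148 had no covered base in the trimmed body at either time. Keeping regions with a score at or above the median of each list, which removes 6h regions only, left 66 gained and 112 lost genes, so the direction turned. With regions of a score of 2 or more in both lists, 152 genes were gained and 0 were lost, and with thresholds of 50% and 10%, 1561 were gained and 65 lost. Hyls1 and Snx15, both at 80.01% at 6h, were just inside the threshold, and Crim1 at 79.94% and Pgls at 79.99% just outside. Chromosomes 8, 15 and 17 held 314 of the gained genes (12.4% of their 2528 genes), and the other chromosomes 204 (1.28% of 15887). On these 3 chromosomes 37.1% of running numbers were skipped at 0h and 16.8% at 6h. What part this had in the number of gained genes there was not tested. Of the gained genes with counts, 353 of 509 had 10 CPM or more and 57 were under 0.1 CPM, against 8422 and 6306 of all 17966 genes with counts. Outside chromosomes 8, 15 and 17 102 of 202 gained genes had 10 CPM or more, against 7151 of all 15502 genes there. There 1.43% of genes with 10 CPM or more were gained, against 1.89% of those at 1 to 10 CPM, 1.85% at 0.1 to 1 CPM and 0.851% under 0.1 CPM. Among genes already covered at 0h, 84 of 139 were under 0.1 CPM and 5 had 10 CPM or more, and among lost genes 26 of 28 were under 0.1 CPM. The start lay inside a 6h region in 81 of the 371 gained genes with an annotated start and strand (21.8%), and the median distance from the start to the first covered base was 888 bases, with the middle 50% from 416 to 1349. In the 300 bases around the start, gained genes had a median of 21 CG dinucleotides and already covered genes 7.

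Outside chromosomes 8, 15 and 17, the gained genes with the most RNA included housekeeping and membrane protein genes. Tfrc, the transferrin receptor gene (ENSMUSG00000022797, chromosome 16, 32608896 to 32632794), was covered to 83.6% at 6h and 0% at 0h, with its first covered base 905 bases from the start. Cs, which encodes citrate synthase (chromosome 10, 128337727 to 128362482), was covered to 81.7% at 6h and 0% at 0h. Matr3, the gene of the nuclear matrix protein matrin 3 (chromosome 18, 35562158 to 35592045), was at 98.4% at 6h and 5.9% at 0h. The small GTPase gene Rab14 was at 89.9%, the deubiquitinase gene Usp14 at 90.9%, the cyclophilin gene Ppig at 82.8% and the lysosomal membrane protein gene Laptm4a at 82.9% at 6h, each with 0% at 0h. Among the longest of these genes were Taok1, a kinase gene (96.2 kb, 87.9% at 6h and 10.4% at 0h), and Rfx7, a transcription factor gene (90.8 kb, 84.6% at 6h and 0% at 0h). Ankhd1 (98.3 kb, 81.3% at 6h), Med13 of the Mediator kinase module (90.6 kb, 80.6%) and the reticulon gene Rtn3 (57.4 kb, 89.9%) had 0% at 0h. Tesk2, B3gntl1, Rnf24 and Pfdn1 were also among the 10 longest, at 81.4% to 91.0% at 6h and 0% to 9.84% at 0h. In the separate library taken at 6h after GSK126, the long genes named here were at 69.6% or more, except B3gntl1 at 43.2%.

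On chromosomes 8, 15 and 17 the longest gained genes reached 319 kb. Nrp1, the gene of the co-receptor neuropilin 1 (chromosome 8, 128358591 to 128505476, 147 kb), was covered to 89.8% at 6h and 0% at 0h. Ghr, which encodes the growth hormone receptor (chromosome 15, 3317755 to 3583352, 266 kb), was at 86.8% at 6h and 13.5% at 0h. Runx2 (chromosome 17, 44495987 to 44814797, 319 kb) was at 91.3% at 6h and 19.4% at 0h, and Fer (chromosome 17, 63862073 to 64146519, 284 kb) at 93.5% at 6h and 1.98% at 0h. Thada (276 kb) was at 85.8% at 6h and 0% at 0h, with its first covered base 7408 bases from the start. Glg1 and Cpe on chromosome 8 and Trps1 and Tnrc6b on chromosome 15 ranged from 82.9% to 91.6% at 6h and from 0% to 5.13% at 0h. After GSK126 at 6h, the 9 genes named on these chromosomes were at 80.0% to 96.3%. Of all gained genes, 305 of 518 were at 80% or more in that library, with a median of 86.1%.

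**Figure D4:**
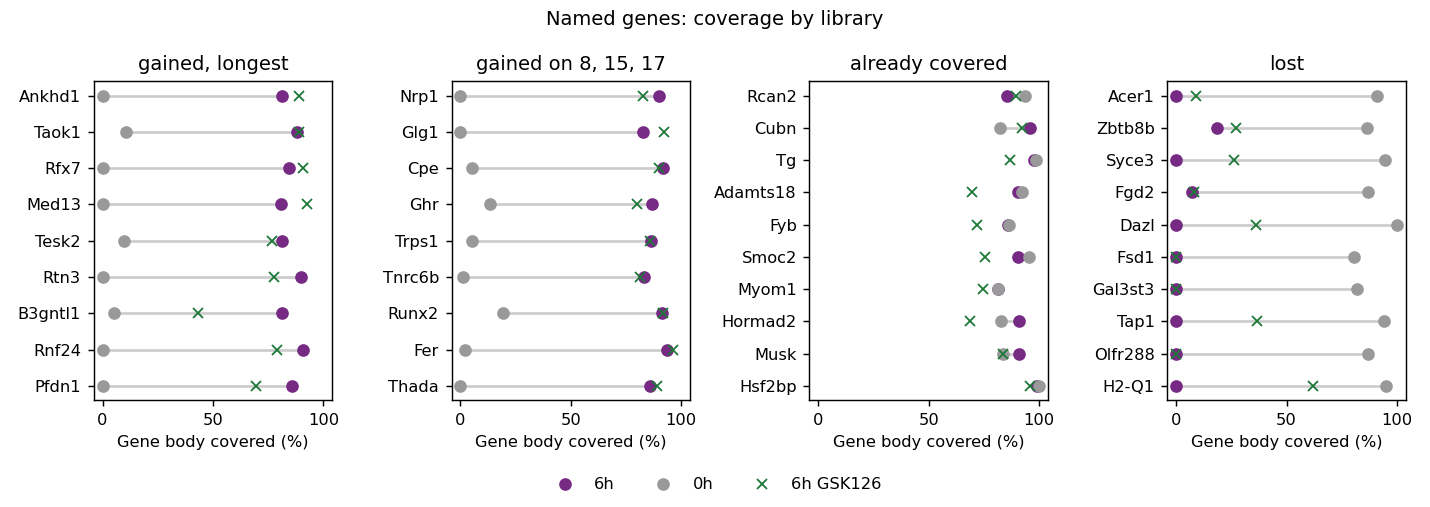
Percent of the gene body inside regions (x axis) for named genes (rows) in the 6h library, the 0h library and the library taken at 6h after GSK126, in 4 panels for 9 of the longest gained genes outside chromosomes 8, 15 and 17, the longest gained genes on these chromosomes, the longest genes already covered and the longest lost genes. Gained genes have 6h points at 80.6% or more and 0h points at 19.4% or less, and lost genes have 6h points at 18.7% or less.

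The widest regions present at 6h with no overlapping 0h region lay over genes. They spanned 129 kb of Btbd9 on chromosome 17 (30446601 to 30575600), 104.8 kb of Zfand3 on the same chromosome (30006401 to 30111200) and 81.8 kb inside Fer (64054001 to 64135800). Others covered Nipbl, the cohesin loader gene (78 kb), Nfatc3 with Esrp2 (75 kb), Rbfox2, a splicing factor gene (68.6 kb), Nfat5, a transcription factor gene of the osmotic stress response (62.2 kb), and Thada (59 and 57.4 kb). These 9 regions had a score of 1, were at 90.4% to 99.5% inside regions of the 6h library with GSK126, and were at 0% to 37.1% inside regions at 24h. A region of 73.8 kb over Prl2c3 on chromosome 13 was instead 99.7% covered at 24h. The Prl2c genes are near-identical copies, so mapping there is uncertain. The widest region at 0h, 176.4 kb on chromosome 17 (30576401 to 30752800), adjoined the widest new one over Btbd9, Glo1 and Dnah8, and 37.1% of it lay inside 6h regions. The other 9 of the 10 widest 0h regions were 92.3% to 100% inside 6h regions, and 5 of them held no annotated gene.

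Genes covered at both times included genes of other tissues with almost no RNA. Tg, the thyroglobulin gene, was covered to 97.5% at 6h and 98.8% at 0h, Musk, the receptor kinase gene of the neuromuscular junction, to 90.8% at 6h and 83.7% at 0h, and the meiotic gene Hormad2 to 90.8% at 6h and 82.7% at 0h. Hsf2bp, Adamts18, Fyb and the muscle gene Myom1 were at 81.4% to 98.9% at 6h and 81.2% to 100% at 0h. Rcan2 (85.3% at 6h and 93.8% at 0h), Cubn (96.1% at 6h and 82.5% at 0h) and Smoc2, a matricellular protein gene (90.3% at 6h and 95.5% at 0h), were covered although RNA was counted at 7.04, 13.9 and 21.8 CPM at 0h. RNA of Smoc2 rose at 6h (log2 change 1.19, SE 0.055, adjusted p = 5.21e-16, edgeR), and that of Rcan2 and Cubn fell by 0.52 and 0.40 on the log2 scale (adjusted p = 0.000124 and 0.000221).

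Lost genes were short and mostly silent, and 22 of the 29 were on chromosomes 8, 15 and 17, where more running numbers were skipped. Their median length was 5.36 kb, against 13.6 kb for gained genes. Acer1, an alkaline ceramidase gene (28.6 kb, chromosome 17, 56953490 to 56982126), was at 0% at 6h and 91.0% at 0h. Dazl, an RNA-binding protein gene of germ cells, was at 0% at 6h and 99.8% at 0h, and Syce3, a synaptonemal complex gene, at 0% at 6h and 94.5% at 0h. Tap1, which encodes a peptide transporter of antigen presentation, was at 0% at 6h and 94.2% at 0h with RNA at 2.5 CPM at 0h. Zbtb8b, Fgd2, Fsd1, Gal3st3, Olfr288 and H2-Q1 completed the 10 longest, at 0% to 18.7% at 6h and 80.7% to 95.1% at 0h. H2-Q1 belongs to a multigene family of similar sequence, so its coverage is uncertain. None of the 29 lost genes reached 80% in the 6h library with GSK126, where their median was 0%, while 19 of 29 were at 80% or more at 24h.

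Among the genes with the highest RNA levels, several had no covered base in the trimmed body at either time, though a region could lie in the 1 kb left out at each end, as for Tubb5, whose start lay inside a 6h region, and Vim, with a 6h region 8290 bases from its start. Actb, the beta-actin gene, averaged 6156 plain CPM at 0h, and the elongation factor genes Eef1a1 and Eef2 averaged 5500 and 3221. Fn1, the fibronectin gene, is 67.8 kb long and its body was at 0% at 6h and 0h, with 4209 CPM at 0h. The cytoskeletal genes Vim, Flna and Tubb5, the chaperone gene Hsp90ab1, the collagen gene Col1a1 and the galectin gene Lgals1 also had trimmed bodies at 0% at both times, with 2650 to 5479 CPM at 0h.

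Coverage by gene group is set against all 18415 genes, of which 22.9% were 20 points or more higher at 6h and 1.78% were 20 points or more lower. Among the 8422 genes with 10 CPM or more at 0h, 34.8% were 20 points or more higher. Of the Polycomb group genes, which encode repressors that methylate histone H3 or modify H2A, 11 of 30 (36.7%) were 20 points or more higher and 0 were lower, with a median coverage of 12.1% at 6h and 0% at 0h. The median RNA of this list was 38.9 CPM at 0h, and its share was near that of genes with 10 CPM or more. Among its members, Suz12, a core subunit of the complex that holds Ezh2, was at 83.4% at 6h, Bmi1 at 76.6%, Mtf2 at 67.4% and Yaf2 at 58.3%, each with 0% at 0h. Cholesterol biosynthesis genes were higher in 6 of 24 and lower in 0, with Acat2 and Tm7sf2 at 100%, Sqle at 70.9% and Msmo1 at 58.0% at 6h and all of these at 0% at 0h. Genes of DNA replication and mitosis were higher in 7 of 34 and lower in 0, among them Tpx2 (68.8%), Pole (63.5%), Bub1 (45.2%) and Cdc6 (44.6%) at 6h, each with 0% at 0h. These shares of 25% and 20.6% were near that of all genes but under the 34.8% of genes with 10 CPM or more. The median RNA of these lists was 48 and 195 CPM at 0h. The median member of both lists was at 0% coverage at both times.

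As lists, collagen chain and fibroblast identity genes were near the 22.9% of all genes that were 20 points or more higher. Collagen chain genes were higher in 10 of 44 (22.7%) and lower in 1, with a median of 8.05% at 6h and 0% at 0h. Col3a1, a fibrillar collagen gene of dermis, was at 68.5% at 6h and 0% at 0h, and the basement membrane collagen gene Col4a2 at 67.1% at 6h and 16.2% at 0h. Col14a1 was covered at both times (74.4% at 6h and 79.3% at 0h) and Col8a2 was partly covered at 0h (71.8% at 6h and 48.6% at 0h). Of 16 fibroblast identity genes 4 (25%) were higher and 1 was lower, with a median of 6.95% at 6h and 0% at 0h. Lum, the gene of the proteoglycan lumican, was at 100% at 6h and 28.8% at 0h, and Prrx2, a mesenchymal transcription factor gene, at 55.6% at 6h and 8.78% at 0h. Dcn, the decorin gene, was lower, at 44.4% at 6h and 65.6% at 0h.

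Some developmental and tissue-specific groups held both genes that were higher and genes that were lower at 6h, and others did not. Of 54 developmental transcription factor genes 11 (20.4%) were higher and 2 lower, with Pax8 at 83.4% at 6h and 44.2% at 0h, Eomes at 82.9% at 6h and 0% at 0h, Tbx2 at 70.7% at 6h and 32.0% at 0h and Zic2 at 58.7% at 6h and 0% at 0h. Of 25 Hox genes 3 were higher and 2 lower, and Hoxd13 was at 100% at both times while Hoxc4 was at 78.2% at 6h and 0% at 0h. Keratin genes were higher in 4 of 52 and lower in 4, and 26 of the 52 are on chromosomes 8, 15 and 17. Potassium channel genes were higher in 7 of 91 and lower in 3, olfactory receptor genes in 2 and 5 of 131, vomeronasal receptor genes in 3 and 4 of 137, and clustered protocadherin genes in 0 and 0 of 51. Of the 6306 genes under 0.1 CPM at 0h, 7.01% were higher and 4.35% lower. Keratin and potassium channel genes, with a median RNA of 0 CPM, were near that share at 7.69% higher each. Olfactory and vomeronasal receptor genes, also at a median of 0 CPM, were under it at 1.53% and 2.19%. Olfactory, vomeronasal and protocadherin genes are families of similar copies, so their coverage is uncertain. Cytosolic ribosomal protein genes of 3 kb or more were higher in 3 of 47 and lower in 1, with Rpl36 at 97.9% at 6h and 0% at 0h, and immediate early genes in 2 of 15 and 0. Synaptic and ion channel genes were higher in 2 of 50 and lower in 0, and defensin genes in 0 of 24 and 0. The 5 clustered histone genes of 3 kb or more had 0 higher and 0 lower, and of 3 H2A variant genes 1 was higher and 1 lower. The median member of the lists in this paragraph was at 0% at both times, as for all genes, except synaptic and ion channel genes (0.91% at 6h and 0.429% at 0h) and H2A variant genes (21.8% at 6h and 0% at 0h).

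RNA of gained genes moved in both directions. Across all 13785 genes tested, 2868 (20.8%) rose and 2509 (18.2%) fell at 6h, 39.0% together (edgeR, adjusted p under 0.05). Of the 438 gained genes tested, 115 (26.3%) rose and 88 (20.1%) fell, with a median log2 change of 0.004, against 0.007 for all genes tested. Protein-coding genes with bodies of 3 kb or more, the class from which gained genes come, rose in 23.4% and fell in 20.9% of 11121 cases. Outside chromosomes 8, 15 and 17, 38 of 149 gained genes rose and 25 fell. A gene tested had to have enough counts, so 80 gained genes are not in these numbers.

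Has2, which encodes a hyaluronan synthase (chromosome 15, body covered to 92.0% at 6h and 19.3% at 0h), had 149, 160 and 145 CPM at 6h, against 54.1, 56.4 and 53.6 CPM at 0h. Has2 was picked, like the genes below, for the size of its called change in these same libraries. Its groups did not overlap, and its log2 change was 1.47 (SE 0.035, adjusted p = 1.62e-22). Itgb1 had 2947, 2932 and 2975 CPM at 6h, against 2120, 2134 and 2083 CPM at 0h, a log2 change of 0.48 (SE 0.022, adjusted p = 4.62e-16). RNA of this integrin gene thus rose in all 3 libraries while 95.8% of its body lay in 6h regions. Ereg, the epiregulin gene, had 47.2, 47.1 and 46.8 CPM at 6h and 25.4, 26.4 and 25.2 CPM at 0h (log2 change 0.87), and Rrad, a GTPase gene, 15.3, 14.7 and 17.2 CPM at 6h and 11.2, 12.1 and 11.4 CPM at 0h (0.44). Has3, another hyaluronan synthase gene, rose by 0.76 but was not called without 6h replicate 1 or without 0h replicate 2 (adjusted p up to 0.101).

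Nadk2, the gene of the mitochondrial NAD kinase (chromosome 15, covered to 92.6% at 6h and 0% at 0h), had 94.4, 89.0 and 92.2 CPM at 6h, against 147, 152 and 160 CPM at 0h. Its groups did not overlap, and the log2 change was -0.73 (SE 0.046, adjusted p = 4.82e-13). Ogn, which encodes the matrix proteoglycan osteoglycin (chromosome 13, covered to 93.1% at 6h and 2.08% at 0h), had 9.23, 9.12 and 10.6 CPM at 6h and 17.2, 15.9 and 16.3 CPM at 0h, a log2 change of -0.78 (SE 0.079, adjusted p = 6.87e-09). Hacd4 and Tent5b fell by 1.13 and 0.94 on the log2 scale, with 1.49 to 1.91 and 2.22 to 2.85 CPM at 6h, against 3.28 to 3.81 and 4.71 to 5.03 CPM at 0h. March9 fell by 0.61 on the log2 scale but was not called without 6h replicate 1, without 0h replicate 2 or without 0h replicate 3 (adjusted p up to 0.0987).

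**Figure D5:**
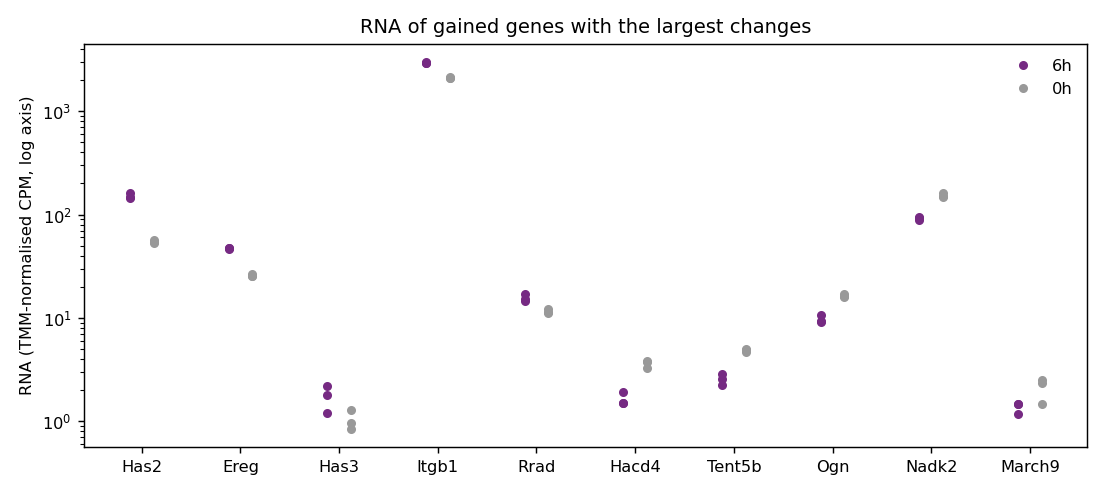
RNA level (y axis, TMM-normalised CPM on a log axis) of the 10 gained genes with the largest called rises and falls (x axis), with 1 point per library, 3 at 6h and 3 at 0h for each gene. The points of the 2 times do not overlap for Has2, Ereg, Itgb1 and Rrad, which are higher at 6h. Nor do they for Hacd4, Tent5b, Ogn, Nadk2 and, by a narrow margin (1.47 and 1.48 CPM), March9, which are lower at 6h. The genes were picked by their called change in these same libraries, so the separation is not independent of that choice.

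Beside the other libraries, bases covered at 6h alone were the least shared with later times. Of these 230 Mb, 65.8% lay inside regions of the 6h library with GSK126, 37.9% inside 24h regions and 30.1% inside 5d regions. Of the bases covered at both 6h and 0h, 82.9%, 96.1% and 93.7% lay inside these libraries' regions, and of those covered at 0h alone, 24.7%, 68.1% and 72.4%. Of the gained genes, 52 were at 80% or more and 414 at 20% or less at 24h. Mean coverage of genes with 10 CPM or more was 24.1% at 6h with GSK126 and 2.27% at 24h.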

How the data were processed

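Native ChIP-seq of macroH2A2-GFP had 1 library at 6h and 1 at 0h, and poly(A) RNA-seq had 3 replicates at each time. Per the submitters' processing notes, the tools named include Bowtie 1.1.2, SICER 1.1 and STAR 2.5.2b, with builds GRCm38 (ChIP) and GRCm38.p4 (RNA). The deposited region lists hold, per region, a whole-number score whose reference is not given in the sources used here, and a running number, which measures nothing. Calling used windows of 200 bases, gaps of up to 800 bases and a threshold of 0.01, and whether the input library served as control is not given. For RNA, the authors deposited unnormalized counts in the layout of STAR, of which column 4 (reverse strand, 96.6% or more of stranded counts) was used. Counts over genes were 30376573 to 37793178 in the 6h and 0h libraries, and 21.2 to 22.2% of reads were not assigned to 1 gene.

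Overlapping regions within a list were joined, and overlaps and coverage computed, in Python 3.11.15 (pandas 2.3.3, numpy 2.4.6). Genes and starts were those of RefSeq GRCm38.p6. Start positions of chromosome 18 and of Y were not used, so location and start profiles cover chromosomes 1 to 17, 19 and X. Gene bodies of 3 kb or more on chromosomes 1 to 19 and X were trimmed by 1 kb at each end. Classes by RNA level per kb had been planned, but transcript lengths were not used and plain CPM at 0h took their place for 17966 genes. RNA was fitted over 9 libraries, 24h included, by the quasi-likelihood test of edgeR 4.0.16 (R 4.3.3) after filterByExpr and TMM, with time group as the only term and p-values adjusted by Benjamini-Hochberg over 13785 genes. Shares have 95% Clopper-Pearson intervals (scipy 1.17.1). Both the coverage and the RNA scripts were tested on simulated data. Figures were drawn with matplotlib 3.10.9.

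The members, the 18 gene lists, the thresholds and the rules below were chosen with earlier results of these data known. Named genes were the 10 longest and the 10 with the most RNA among gained genes outside chromosomes 8, 15 and 17, the 3 longest gained genes on each of these, the 10 longest already covered and lost genes, the 10 bare genes with the most RNA, up to 4 members of a list with the highest coverage at 6h, and the 5 largest RNA rises and falls among gained genes that were called and averaged at least 1 CPM. A gene that these rules select is not reported here. Regions named were the 10 widest new and 0h regions and the 3 highest scores of each list. Alternatives were other score filters, chromosome sets, overlaps, windows, thresholds and RNA fits.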

Additional observations from a re-analysis of the deposited data

How the results depend on the processing

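With 1 ChIP library per condition, no replicate could be left out of the region comparisons, and depth and enrichment cannot be told apart from the time of doxycycline. The number of regions and the covered length were higher at 6h under each alternative run, but with very different sizes. Keeping regions with a score at or above the median of each list drops only 6h regions, since the median is 2 at 6h and 1 at 0h. That left 32158 regions and 202.9 Mb at 6h, against 28980 regions and 201.1 Mb at 0h, overlap of 49.1% of 6h and 62.8% of 0h regions, 44.7% of 6h bases in genes or start windows, 66 gained, 88 already covered and 112 lost genes, so lost genes then outnumbered gained ones. A covered base at 6h then occurred in 27.3% of genes with 10 CPM or more and 24.4% of genes under 0.1 CPM. Added after seeing the data, a score of 2 or more in both lists gave 32158 regions and 202.9 Mb at 6h, 8716 regions and 51.37 Mb at 0h, overlap of 23.7% of 6h and 92.7% of 0h regions, 44.7% of 6h and 36.3% of 0h bases in genes or start windows, and 152 gained, 27 already covered and 0 lost genes. Covered bases then occurred in 27.3% of genes with 10 CPM or more at 6h and 2.89% at 0h, and in 24.4% of genes under 0.1 CPM at 6h and 10.4% at 0h.

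Autosomes without 8, 15 and 17 had 130.1 Mb covered at 0h, overlap of 36.9% of 6h and 90.6% of 0h regions, 53.0% of 6h and 36.4% of 0h bases in genes or start windows, 202 gained, 59 already covered and 7 lost genes. There 53.5% of genes with 10 CPM or more had a covered base at 6h and 5.61% at 0h, and 21.7% of genes under 0.1 CPM at 0h. Autosomes alone changed none of the results by over 1.5 times or past their interval. Merging across gaps of up to 5 kb gave 34704 regions at 6h and 17897 at 0h. Overlap of 50% of a region or more held for 33.5% of 6h and 78.9% of 0h regions. Start windows of 500 bases held 0.446% of 6h and 0.362% of 0h bases, and windows of 2 kb 3.09% and 2.3%, with 55.0% of 6h and 38.1% of 0h bases in genes or windows. By midpoints, 0.923% of 6h and 0.732% of 0h regions fell in start windows, and 38.4% of 0h regions in genes or windows. Thresholds of 50% and 10% gave 1561 gained, 450 already covered and 65 lost genes, thresholds of 90% and 10% gave 274 gained and 94 already covered genes, and genes of 10 kb or more 301 gained, 81 already covered and 7 lost. With gained set at 50% and 10%, 372 rose (26.9%) and 285 fell (20.6%) of 1384 tested. At 90% and 10%, 63 rose (29.2%) and 36 fell (16.7%) of 216. Outside 8, 15 and 17, 38 rose (25.5%) and 25 fell (16.8%) of 149. Over protein-coding genes with bodies of 3 kb or more, 23.4% rose and 20.9% fell. Leaving out 1 RNA library gave 2473 to 2603 genes up, 2194 to 2329 down, 94 to 106 gained genes up and 73 to 79 down. Classes by RNA level per kb were not run.

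The replicate numbers of the RNA libraries did not pair them, with correlations of 0.017, -0.016 and -0.013 between libraries of the same number. With the number as a replicate block, 2898 genes rose and 2537 fell, against 2868 and 2509 without it.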
